A study of Mus musculus with 36 samples.

Results

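Late postnatal maturation of Myt1l heterozygote mouse brain was followed by RNA sequencing from postnatal day 21 (P21), about the time of weaning, to postnatal day 56 (P56), when a mouse is a young adult. The comparison rests on 10 of the study's 36 libraries, chosen by their labels alone: 5 of heterozygote brain at P21 and 5 of heterozygote brain at P56. All 10 were made from whole brain of untreated male mice on the C57BL/6J background, and each is labelled as heterozygous for Myt1l, a zinc-finger transcription factor gene of neurons. The labels do not describe the altered allele. The remaining libraries are 5 wild-type brains at P21, 5 at P56 and, at postnatal day 3 (P3), 8 of each genotype, all male C57BL/6J too. Nothing in the labels ties samples to litters, so p-values measure the spread between these samples. No label names a sequencing batch, so age and batch cannot be told apart. The P21 descriptions carry a prefix of unstated meaning. In the heterozygote it is 24 for replicates 1 to 3 and 11 for replicates 4 and 5, and in wild-type it is 24 for replicate 1, 16 for replicates 2 and 3 and 11 for replicates 4 and 5. Values are normalized counts, that is, estimated read counts per gene scaled between libraries by the authors. Sequencing depth is unknown.

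In the weeks between weaning and young adulthood a mouse brain keeps its overall anatomy while its cells mature. Oligodendrocyte precursors leave the cell cycle, pass through a short newly formed stage and then wrap axons in myelin, a membrane rich in cholesterol and galactolipid. Over the same weeks synapses are pruned and stabilised, perineuronal nets of proteoglycan close around some neurons, and vessels stop sprouting. Because whole brain was used, fewer cells of a type and less RNA per cell cannot be told apart anywhere below. Markers of the labelled tissue were checked: Snap25 of neurons, the astrocyte gene Slc1a2, Mbp of oligodendrocytes, Csf1r of microglia and the endothelial gene Cldn5 were present in each of the 10 libraries, with 402 normalized counts of Cldn5 as the lowest value among these 5 genes. Pituitary RNA varied widely between libraries of either age. Growth hormone (Gh) read 0, 0.886, 218, 16.2 and 7674 in P21 replicates 1 to 5 and 375, 3712, 12836, 0 and 70.7 in P56 replicates 1 to 5, and its part in other differences was not tested.

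Myt1l (mouse identifier ENSMUSG00000061911, chromosome 12 from 29528384 to 29923213 in GRCm38), the gene of the genotype label, read 7359, 8135, 7434, 7341 and 8439 in the P21 libraries. At P56 it read 6393, 6410.2, 7465, 6495 and 5918. The groups overlapped through P56 replicate 3, which lay above 3 of the P21 libraries. The gene fell by 0.25 in log2 units (SE 0.0688, adjusted p = 0.0306), but the highest adjusted p with a library left out was 0.0846, so the call depends on single libraries (without P21 replicate 2 or 5, or P56 replicate 1, 2, 4 or 5, it is lost). The call was also lost with quantile normalization, limma without trend, a fit of 20 libraries, a block for the replicate number or either P21 prefix alone. Of 24 alternatives 12 kept it. In wild-type brain the difference was -0.27 (adjusted p = 0.155). Wild-type libraries read 6982, 6361, 7093, 7673 and 7943 at P21 and 5592, 5181, 8115, 5392 and 5983 at P56, so at neither age did the heterozygote-labelled libraries lie below the wild-type libraries as a group, and heterozygote here means labelled so. Summed over transcripts, these counts hold no information on which allele was transcribed.

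Of 17337 genes tested, 872 (5.03%) rose and 1373 (7.92%) fell from P21 to P56 at an adjusted p under 0.05 by limma on log2(value + 1). Most changes were small. The median log2 difference was 0.41 among genes that rose and -0.40 among genes that fell, and only 64 rose and 109 fell by more than 1 on the log2 scale. Over all tested genes the median was -0.0018, with 90% of genes between -0.48 and 0.47. In 812 genes (4.68%) every P56 library lay above every P21 library, and in 1179 (6.80%) every P56 library lay below. The first principal component, with 27.9% of the variance, separated the ages: P21 libraries lay between -26.9 and -17.6 and P56 libraries between 15 and 25.8. Within the ages, P21 replicate 3 stood at -34.7 and P56 replicate 5 at 30.3 on the second component, which held 20% of the variance. The count of genes that rose was 543 without P21 replicate 2, 550 without P56 replicate 4 and 581 without P56 replicate 2. With P21 replicates 1 to 3 alone, 740 rose and 917 fell, and with P21 replicates 4 and 5 alone, 336 rose and 742 fell.

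**Figure D1:**
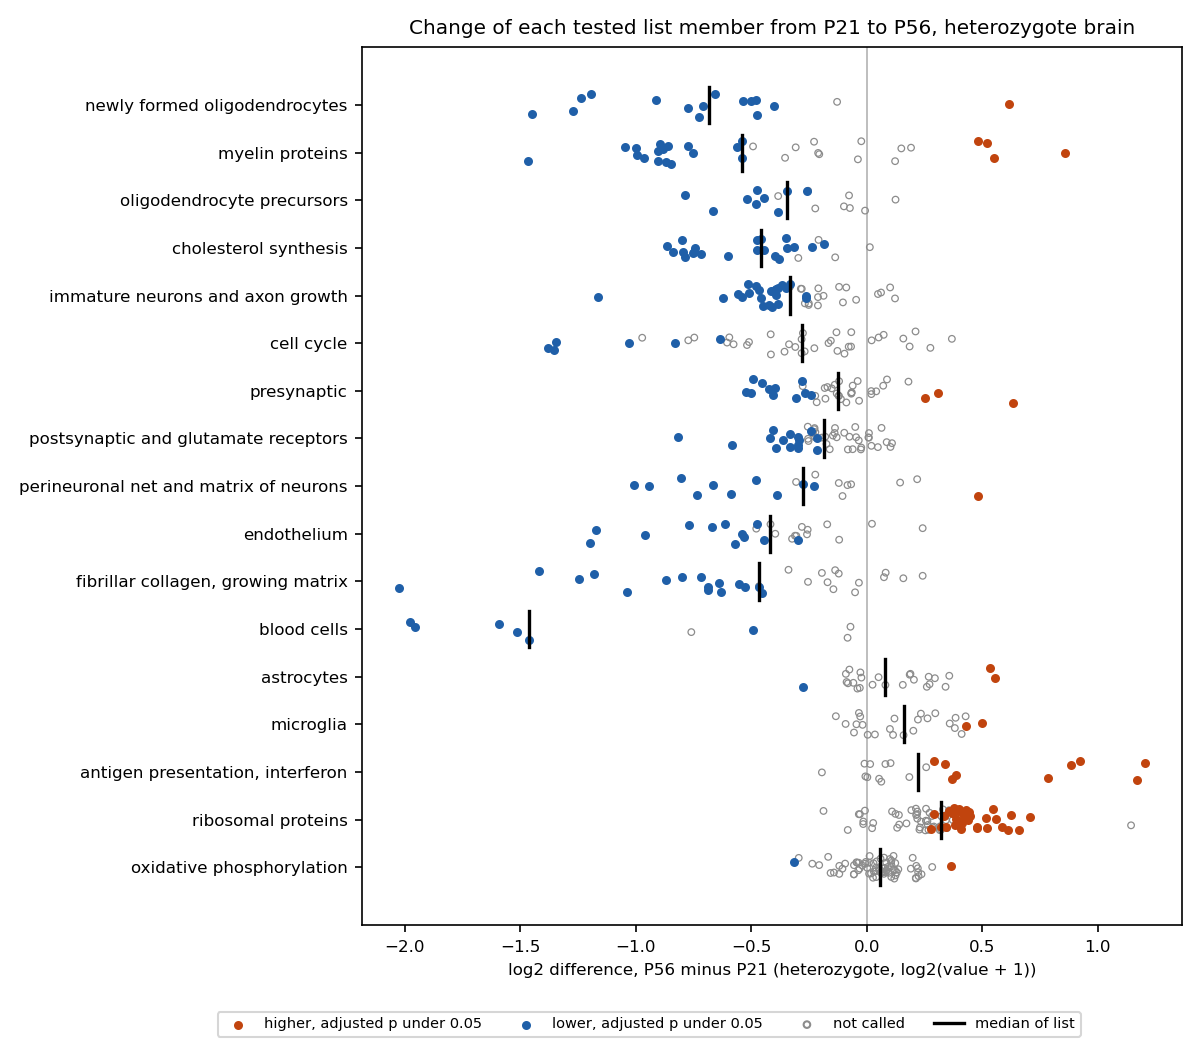
Each point is 1 tested gene of a list, placed by its log2 difference between P56 and P21 in heterozygote brain; filled points passed an adjusted p under 0.05 (orange higher, blue lower), open points did not, and the bar is the list's median. Oligodendrocyte, cholesterol, vessel, matrix and blood lists lie mostly left of 0, and the ribosomal list lies mostly right of it, with a median of 0.32.

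Genes of the newly formed stage of the oligodendrocyte lineage fell. Of 16 tested genes that mark newly formed oligodendrocytes, 14 fell and 1 rose, with a median log2 difference of -0.68. Over all tested genes 7.92% fell and 5.03% rose. Gpr17, a G-protein-coupled receptor present in the step between precursor and myelinating cell, read 5525, 5280.2, 5185, 6325 and 5400.3 at P21 and 1819, 2045, 1792, 2212 and 2301 at P56. All P56 libraries lay well below all P21 libraries, and the log2 difference was -1.45 (SE 0.0811, adjusted p = 2.23e-07). Enpp6, a choline phosphodiesterase of the same stage, read 1404, 1314, 1255, 1733 and 1389 at P21. At P56 it read 576, 693, 564, 598 and 659.7, again without overlap, and it fell by 1.19 (SE 0.0914, adjusted p = 4.45e-06). Kif19a, a kinesin, fell by 1.24 (SE 0.123, adjusted p = 3.05e-05). The exception was Bcas1, also a gene of early myelinating cells, which read 8258, 7052, 7542, 10173 and 7998 at P21 and 10439.9, 12618, 9830.2, 12253 and 18946 at P56. Its groups overlapped, its difference was 0.61 (SE 0.153, adjusted p = 0.0188), and the adjusted p was 0.0512 without P21 replicate 2.

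Genes of the myelin sheath itself split into a larger group that fell and a smaller group that rose. Of 32 tested genes, 17 fell and 4 rose, beside 7.92% and 5.03% of all tested genes, with a median of -0.54. The list's mean lay between 12.01 and 12.47 in P21 libraries and between 11.69 and 12.14 at P56 on the log2 scale. Ugt8a (ENSMUSG00000032854, chromosome 3 from 125865271 to 125938619 in GRCm38) makes galactosylceramide, the main galactolipid of myelin. It read 9238, 8338, 8540.4, 9864 and 7298 at P21 and 3058, 3209, 2956, 2829 and 3566 at P56. The groups did not overlap and the gene fell by 1.47 in log2 units (SE 0.0837, adjusted p = 2.23e-07). The tight-junction gene Cldn11, the tetraspanin gene Tspan2 and Nfasc, an adhesion gene of the node of Ranvier and its flanks, fell too, with log2 differences of -1.05, -0.87 and -0.78 and adjusted p values of 5.81e-05, 8.44e-06 and 1.70e-05. Mbp, the basic protein that compacts the sheath, read 315477, 271066, 269723, 394028 and 282600.0 at P21 and 196338, 223928, 162867, 201839 and 322289 at P56. Its groups overlapped and it was not called, at -0.49 (SE 0.157, adjusted p = 0.0557). Without P56 replicate 5, the highest of its group, the adjusted p was 0.00381, and Mbp was also called with a filter at 50, quantile normalization, a common library total or library quality weights.

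The 4 sheath genes that rose were Plekhb1, Apod, Car2 and Hapln2. Plekhb1, a pleckstrin-homology protein, read 11445, 10235, 9619, 13209.6 and 10117 at P21 and 17600.2, 20558, 15228, 19119.5 and 28142 at P56, a difference of 0.86 (SE 0.138, adjusted p = 0.00134). The lipocalin gene Apod rose by 0.55 and Car2, the carbonic anhydrase of oligodendrocytes, by 0.52, both with P56 libraries all above P21 libraries. Hapln2, a link protein at nodes of Ranvier, differed by 0.48, but its groups overlapped and its adjusted p reached 0.0868 with a library left out (P21 replicates 2, 4 and 5 and P56 replicates 3, 4 and 5 each ended the call). Of 17 precursor genes 9 fell and none rose, with a median of -0.345, among them the guidance cue Sema5a at -0.47, the proteoglycan gene Cspg4 at -0.52 and the growth factor receptor gene Pdgfra at -0.34. Without P56 replicate 5, 20 of the 32 sheath genes fell and 3 rose, and 14 of the 16 newly formed genes fell. The median of the sheath list was -0.49 against P21 replicates 1 to 3 and -0.61 against replicates 4 and 5. For the precursor list, 5 and 2 genes fell in these smaller comparisons, with medians of -0.31 and -0.39. In the main comparison 7.92% of all tested genes fell.

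From P3 to P21 in heterozygote brain, a contrast that shares the P21 libraries, the sheath list had a median log2 difference of 4.38 and the newly formed list of 1.00. Beside these, the medians from P21 to P56 were -0.54 and -0.68. The precursor list had medians of -0.32 and -0.345 over the earlier and later interval.

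**Figure D2:**
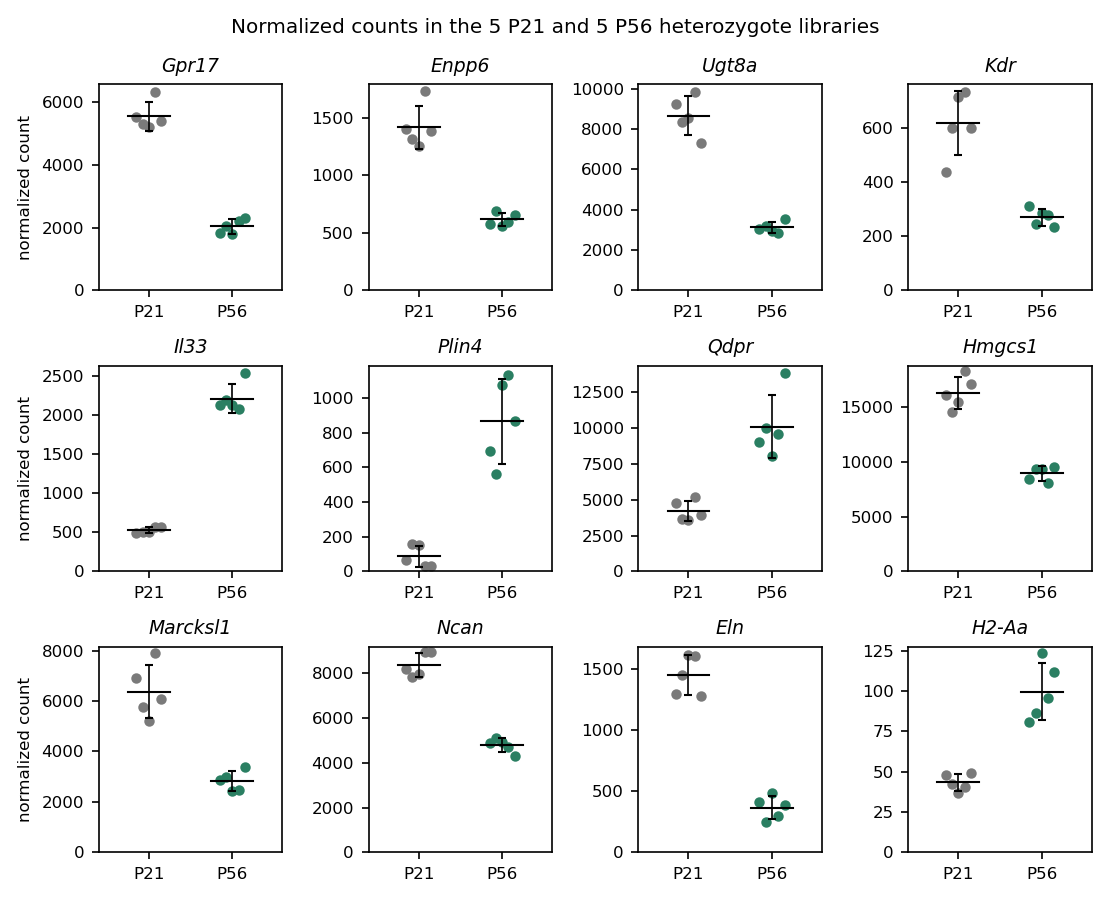
Normalized counts of 12 genes in each of the 5 P21 (grey) and 5 P56 (green) heterozygote libraries, with the mean as a line and 1 SD as a bar; each vertical axis starts at 0. In all 12 genes the P21 and P56 points do not overlap.

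Genes of the synthesis of cholesterol, a lipid of the myelin membrane, fell. Of 25 tested genes of the pathway, 21 fell and none rose, beside 7.92% of all tested genes that fell, with a median of -0.46. The list's mean lay between 10.89 and 11.08 at P21 and between 10.38 and 10.53 at P56 on the log2 scale. Hmgcs1, which makes the precursor HMG-CoA, fell by 0.86 (SE 0.0728, adjusted p = 8.51e-06). Its counts were 16098, 14546, 15456, 18274 and 17106 at P21 and 8462, 9388, 9312, 8029.9 and 9565 at P56, without overlap. Cyp51, which demethylates lanosterol, and Sqle, the squalene epoxidase, fell with log2 differences of -0.79 and -0.74. The number that fell was between 17 and 21 with any 1 heterozygote library left out. From P3 to P21 in heterozygote brain, with the same P21 libraries, the list had a median of -0.44. The sheath list had a median of 4.38 over that earlier interval, and a link between the 2 lists was not tested. Overlap with the antisense gene Gm48342 covers 12.1% of the exonic bases of Hmgcs1, and the library kit does not record strand.

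Sterol genes are known targets of SREBP factors, and 1 promoter is shown because it holds a core of their binding element. The 250 bases before the RefSeq start of Hmgcs1 (GRCm38.p6, chr13:119690101-119690350, plus strand) follow, with the letters CACCCCAC in capitals.
Hmgcs1: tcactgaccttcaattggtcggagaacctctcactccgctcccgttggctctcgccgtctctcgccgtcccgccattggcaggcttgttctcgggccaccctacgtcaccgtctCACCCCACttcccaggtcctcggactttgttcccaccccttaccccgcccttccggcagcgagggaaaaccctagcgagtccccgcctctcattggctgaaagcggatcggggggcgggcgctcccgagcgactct
Searched on both strands, CACCCCAC occurred in 2 of the 17 list genes that had a promoter in the RefSeq table, Hmgcs1 and Acat2, and in 2.58% of all 32851 promoters of that length. The match describes letters in this window and is no measured site.

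Among the named genes that passed the test, Plin4 and Il33 rose most. Plin4 (ENSMUSG00000002831, chromosome 17 from 56100591 to 56109803 in GRCm38), a protein of the lipid droplet surface that responds to glucocorticoids, read 66.7, 155, 149, 30.6 and 32.2 at P21 and 693, 559, 1076, 1131 and 868 at P56. No P56 library overlapped with P21, and the gene rose by 3.58 in log2 units (SE 0.48, adjusted p = 0.00109). Il33 (ENSMUSG00000024810, chromosome 19 from 29925114 to 29960718 in GRCm38) codes for a nuclear cytokine that oligodendrocytes and astrocytes hold. It read 494, 504, 507, 569.6 and 568 at P21 and 2124, 2188, 2122, 2075 and 2529 at P56, and had the smallest p of all genes, with a rise of 2.06 (SE 0.0731, adjusted p = 1.54e-09). Within each age the Il33 values differed little, apart from P56 replicate 5, which lay highest.

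Pkd2l1, a channel of neurons that contact the cerebrospinal fluid, rose by 1.94 (SE 0.19, adjusted p = 2.74e-05). Serpinb1a, an inhibitor of serine proteases, rose by 1.46, and Qdpr, which regenerates tetrahydrobiopterin and is abundant in oligodendrocytes, by 1.25 (SE 0.138, adjusted p = 1.05e-04). Qdpr read 4752, 3626, 3617, 5189 and 3962 at P21 and 9007, 10029, 8047, 9558 and 13838 at P56, so the lowest P56 library lay above the highest P21 library. Neat1, the long noncoding RNA that scaffolds paraspeckles, read 1255, 1353, 2016, 949 and 1296 at P21 and 2925, 2864, 4189, 3877 and 3768 at P56. It rose by 1.39 (SE 0.17, adjusted p = 2.82e-04), again with no overlap. The choline dehydrogenase Chdh rose by 1.28 and the xanthine dehydrogenase Xdh by 1.22. Slc4a11, a membrane transporter, rose by 1.27. Inmt, a methyltransferase, rose by 1.58, Rpe65 by 1.78, Ms4a6d, a membrane protein of myeloid cells, by 1.23, and Ip6k3, an inositol hexakisphosphate kinase, by 1.33. Counts of these last 4 genes and of Slc4a11 were low, with 82.8 in P56 replicate 4 of Slc4a11 as the highest. Fmo2, a flavin monooxygenase, differed by 1.21 (SE 0.362, adjusted p = 0.044), but its groups overlapped and P21 replicates 1, 4 and 5 and P56 replicates 1, 2, 3 and 5 each ended the call when left out.

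Among genes listed for their response to glucocorticoids, the stress hormones of the adrenal, 4 of 16 rose and 1 fell, with a median of 0.32. Counts of lists in this paragraph stand beside 5.03% of all tested genes that rose and 7.92% that fell. Besides Plin4 they were Fkbp5, a co-chaperone of the glucocorticoid receptor, Pdk4, a kinase that inhibits pyruvate dehydrogenase, and Mt1. Fkbp5 read 1528, 1687, 1620.4, 1382 and 1305 at P21 and 2481, 2459.6, 2334, 1938 and 1959.5 at P56 and rose by 0.57 (SE 0.0924, adjusted p = 0.00122), without overlap. Ddit4, another known target and the member that fell, had a log2 difference of -0.45. Of 19 clock genes 4 rose and none fell, among them the repressor Nr1d2 at 0.40 and the activator Tef at 0.23. Tef lost its call in a fit of 36 libraries and against either P21 prefix alone. Nr1d2 lost its call against P21 replicates 4 and 5 alone. In the comparison against P21 replicates 4 and 5 alone 2 clock genes rose and 1 fell. The hour of tissue collection is not in the labels.

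Genes of immature neurons and growing axons fell. Of 41 tested, 23 fell and none rose, beside 7.92% of all tested genes that fell, with a median of -0.33. All 5 P56 libraries, with list means of 10.98 to 11.10, lay below all 5 P21 libraries, at 11.28 to 11.44 on the log2 scale. Marcksl1, an actin-binding substrate of protein kinase C in growth cones, read 6923, 5762, 5210.1, 7888 and 6099 at P21 and 2879, 2997, 2431, 2491 and 3369.8 at P56. It did not overlap and fell by 1.17 (SE 0.113, adjusted p = 2.74e-05). The collapsin response mediators Dpysl5 and Crmp1, which act on growth cone microtubules, had log2 differences of -0.39 and -0.46, and the adhesion molecule gene Ncam1 of -0.33; all passed the test. Dcx, the microtubule protein of migrating neurons, read 1539, 1701, 2261, 1441 and 2085 at P21 and 1245, 1483, 1429, 1231 and 1092 at P56. Its groups overlapped, its difference was -0.46 (SE 0.123, adjusted p = 0.0238), and P21 replicate 5 and P56 replicates 1, 4 and 5 each ended the call when left out. The count that fell was between 16 and 24 with a heterozygote library left out, 15 against P21 replicates 1 to 3 alone and 14 against replicates 4 and 5 alone, with medians of -0.34 and -0.36.

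Of 40 tested cell cycle genes 6 fell and none rose, beside 7.92% of all tested genes that fell. The count was 3 against P21 replicates 1 to 3 alone and 4 against replicates 4 and 5 alone. Top2a, the topoisomerase of dividing cells, read 132, 129.8, 133, 163 and 169.7 at P21 and 63.8, 42.4, 42.8, 50.6 and 84.4 at P56, a log2 difference of -1.38 (SE 0.189, adjusted p = 3.85e-04) without overlap. The proliferation antigen Mki67 fell by 0.83, and the mitotic genes Hmmr and Ndc80 fell too, at -1.35 and -1.35. The median of the list was -0.28, and from P3 to P21, with the same P21 libraries, it was -2.88.

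Synaptic genes that passed the test mostly fell, as did called genes of all kinds, of which 1373 fell and 872 rose. Of 50 genes listed as postsynaptic or as glutamate receptors 15 fell and none rose, with a median of -0.19. The share that fell over all tested genes was 7.92%. Grm2, a metabotropic glutamate receptor that restrains transmitter release, read 1958, 1746, 1621, 1868 and 1942 at P21 and 1031, 1072, 1163, 999 and 924 at P56. Its groups lay apart and it fell by 0.82 (SE 0.0755, adjusted p = 1.71e-05). Grin1, the obligate subunit of NMDA receptors, Grin3a, its juvenile-type partner, and the adhesion gene Nlgn3 also fell, with log2 differences of -0.42, -0.36 and -0.41. Another gene, Gm21986, shares 41.2% of the exonic bases of Nlgn3, and Grin1os shares 13.5% of those of Grin1 on the other strand. Against P21 replicates 4 and 5 alone 8 genes of this list fell, with a median of -0.18, and 10 without P21 replicate 2.

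On the presynaptic side 11 of 40 fell and 3 rose, with a median of -0.13. Erc1, a scaffold of the active zone, and the plasma membrane SNARE gene Stx1a fell, with log2 differences of -0.52 and -0.50. The risers were Unc13c, a priming factor best known from cerebellar granule cells, and the SNARE genes Vamp1 and Snap25. Unc13c read 2998, 3301, 3205, 3549 and 2734 at P21 and 4449.5, 4959, 4418, 5039 and 5640.5 at P56, without overlap, and rose by 0.63 (SE 0.0825, adjusted p = 2.71e-04). Snap25 differed by 0.25 with groups that did not overlap, but P21 replicate 2 and P56 replicates 1, 3 and 4 each ended its call when left out, and P21 replicate 2 also ended that of Vamp1, at 0.31. The number of presynaptic genes that fell was 7 without P21 replicate 1 or 2 or P56 replicate 2 or 4, and 16 without P21 replicate 3. Against P21 replicates 1 to 3 alone it was 6, and the count that rose was 1 without P21 replicate 2 or against replicates 4 and 5 alone. Of 48 voltage-gated channel genes 8 fell and 1 rose, with a median of -0.15. The calcium channel subunits Cacna1a and Cacna2d3 fell, at -0.44 and -0.45. The number of channel genes that fell was 5 without P21 replicate 1 or P56 replicate 4 and 4 without P21 replicate 2, and 5 and 4 against P21 replicates 1 to 3 and 4 and 5 alone. Of 24 genes of GABA signalling 4 fell, a count that was 1 without P21 replicate 2, 2 against P21 replicates 1 to 3 alone and 1 against replicates 4 and 5 alone. Of 18 interneuron class genes 2 fell and 1 rose. Each count in this paragraph stands beside 7.92% of all tested genes that fell and 5.03% that rose. The interneuron count that fell was 0 without P21 replicate 1 or 4, 1 without P21 replicate 2 or P56 replicate 2, 3, 4 or 5, and 3 without P21 replicate 3.

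Genes of the matrix around neurons fell as well. Of 19 tested genes of perineuronal nets and neural matrix 10 fell and 1, Hapln2, rose, with a median of -0.28. The shares over all tested genes were 7.92% falling and 5.03% rising. Ncan, a proteoglycan of juvenile brain matrix, read 8188, 7814, 7954, 8962 and 8949 at P21 and 4899, 5090.1, 4950.4, 4711 and 4320.1 at P56. It fell by 0.80 (SE 0.0634, adjusted p = 5.76e-06), with groups far apart relative to their spread. The glycoprotein gene Tnc, the link protein gene Hapln1 and Adamts4, a protease that cuts such proteoglycans, had log2 differences of -1.01, -0.74 and -0.94, and each passed the test. Some genes, such as Vcan and Tnr, stand both here and in the precursor list, so the lists are not independent. Against P21 replicates 4 and 5 alone 4 genes of the neural matrix list fell, with the median still at -0.28.

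Regulators of chromatin and transcription that are tied to autism risk fell in 11 of 55 cases and rose in none, with a median of -0.11. Dnmt3a, a DNA methyltransferase active in maturing neurons, read 5617, 5704, 6116, 6222 and 5942 at P21 and 3634, 3749, 3878, 3921 and 3693 at P56. Its groups did not overlap and it fell by 0.65 (SE 0.0527, adjusted p = 6.64e-06). The transcription factor genes Mef2c, Satb1 and Nfix fell, at -0.61, -0.45 and -0.28. Against P21 replicates 4 and 5 alone the count was 6 and the median -0.04. Of 28 protocadherins 5 fell. That count was 1 without P21 replicate 2 or P56 replicate 4 and 2 without P21 replicate 5 or P56 replicate 5. Both list counts stand beside 7.92% of all tested genes that fell in the main comparison. Clustered protocadherins share exons, so their separate values are uncertain.

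Genes of vessels and connective matrix fell. Of 30 tested genes of fibrillar collagen and growing matrix 16 fell and none rose, with a median of -0.47. Eln (ENSMUSG00000029675, chromosome 5 from 134702593 to 134747323 in GRCm38), the elastin of arterial walls, read 1299.9, 1457, 1619, 1609 and 1284 at P21 and 411, 246, 488, 297 and 385 at P56. The highest P56 value was below the lowest P21 value and the gene fell by 2.02 in log2 units (SE 0.156, adjusted p = 6.64e-06). Col4a1, of the basement membrane, fell with a log2 difference of -1.18, and the fibrillar collagen genes Col5a2 and Col1a2 with -0.69 and -0.55. Of 25 endothelial genes 12 fell and none rose, with a median of -0.42. Kdr, the receptor for vascular endothelial growth factor, read 437, 599, 714, 732 and 599 at P21. It read 311, 244, 284, 279 and 233 at P56 and fell by 1.17 (SE 0.133, adjusted p = 9.99e-05) without overlap. The tight-junction gene Cldn5, the co-receptor gene Eng and the clotting factor gene Vwf fell, with log2 differences of -0.96, -0.67 and -1.20. P56 replicate 5 had the lowest endothelial mean, 8.78, against 9.03 to 9.33 in the other P56 libraries and 9.33 to 9.65 at P21. Without it 10 endothelial genes fell, with a median of -0.31, and against P21 replicates 1 to 3 alone or 4 and 5 alone 5 and 6 fell, with medians of -0.37 and -0.51. Of 13 pericyte and smooth muscle genes 4 fell, and 2 and 1 in the same smaller comparisons. The list counts of this paragraph stand beside 7.92% of all tested genes that fell in the main comparison.

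The named genes with the steepest falls have varied known roles. Aplnr, the apelin receptor of sprouting endothelium, fell by 1.82 (SE 0.22, adjusted p = 1.51e-04). The endothelial protocadherin gene Pcdh12 and the metalloproteinase gene Adamts12 fell too, at -2.25 and -1.99. Casr, the calcium-sensing receptor, read 87.6, 86.9, 87.5, 80.6 and 91.1 at P21 and 24, 9.95, 22.7, 18.9 and 15.8 at P56. Its P21 values spread little, no P56 value came near them, and it fell by 2.24 (SE 0.22, adjusted p = 2.74e-05). Further genes in the set of steepest falls were Rab7b, a small GTPase of lysosomes, at -1.89, Alox5, the lipoxygenase of leukotriene synthesis, at -1.87, and the cytokine subunit gene Il23a at -2.15. The sarcomere genes Myh13 and Mybpc3, and Tdrd1, of the piRNA pathway, fell with log2 differences of -2.41, -1.73 and -1.67. Some of these genes had low counts. At P56 Myh13 read 1.42 to 11.8, Pcdh12 1.89 to 21.8 and Il23a 4.59 to 16.3, around the filter minimum of 10. Myh13 lost its call against P21 replicates 4 and 5 alone. Tmem252 differed by -1.81, with P56 replicate 3 at 95.4 inside the P21 range, and its adjusted p was 0.0596 without P56 replicate 5. The imprinted noncoding RNA H19, high in growing tissue, read 96.6, 74.1, 93.0, 92.1 and 75.4 at P21 and 23.7, 25.1, 27.8, 24.9 and 44.3 at P56 and fell by 1.56 (SE 0.191, adjusted p = 1.70e-04), without overlap.

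Haemoglobin and haem genes, which mark red cells left in the vessels, had the lowest median of the lists. Of 9 tested blood genes 6 fell and none rose, beside 7.92% of all tested genes that fell, with a median of -1.46. Hba-a1 read 6207, 4712, 4844, 9154 and 7478 at P21 and 1647, 1603, 1629.5, 1299 and 1836 at P56. It fell by 1.98 (SE 0.165, adjusted p = 1.65e-05). Hba-a2, Hbb-bs, Hbb-bt and Alas2, which starts haem synthesis in red cells, had log2 differences of -1.95, -1.51, -1.46 and -1.59, all past the test. P21 replicates 4 and 5, which share the prefix 11, were the highest of the P21 libraries for Hba-a1, and the list's median was -1.14 against P21 replicates 1 to 3 and -1.94 against replicates 4 and 5. The haemoglobin copies share sequence within each pair, so the split between copies is uncertain. Of the 31-base words of Hba-a1 transcripts 75.4% also occur in Hba-a2, and of those of Hbb-bs 54.4% occur in Hbb-bt. Labels do not say whether brains were perfused. The share of blood in the falls of vessel genes was not tested.

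**Figure D3:**
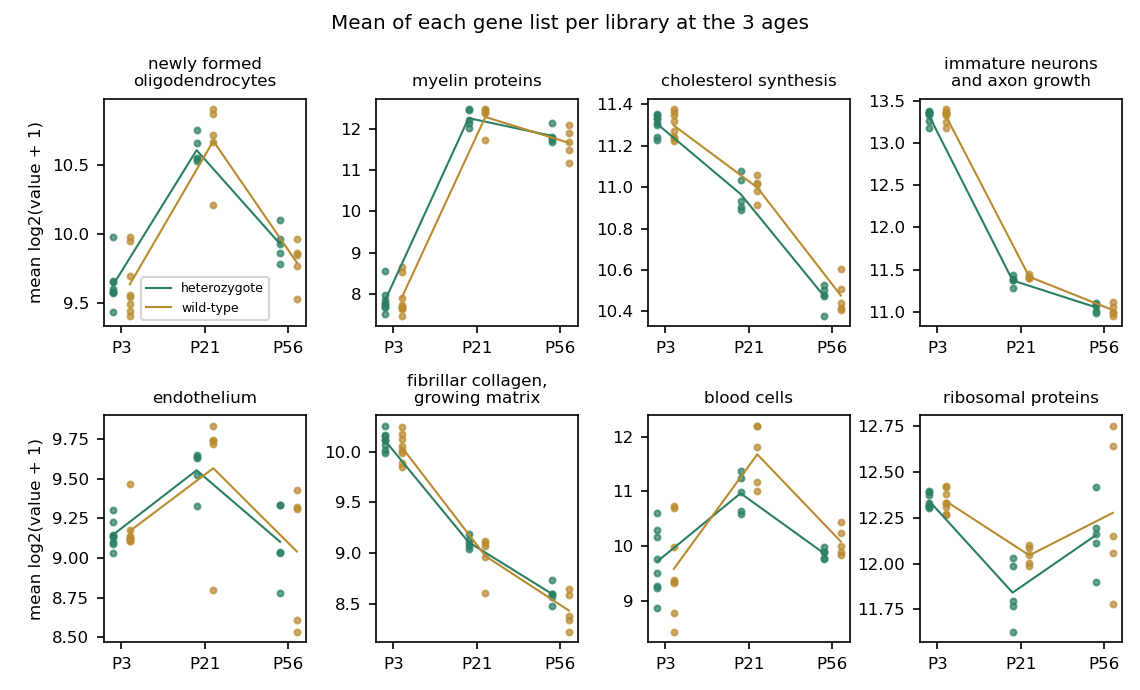
Mean log2(value + 1) of the tested genes of 8 lists in every library at P3, P21 and P56, heterozygote in green and wild-type in ochre; lines join group means and vertical axes do not start at 0. Sheath genes fall between P21 and P56 far less than they rise between P3 and P21, and ribosomal genes spread more between P56 libraries than at P3.

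Genes of antigen presentation and interferon response rose in 9 of 20 cases and fell in none, with a median of 0.22. Over all tested genes 5.03% rose. The class II genes H2-Aa, H2-Eb1 and H2-Ab1 present peptides to helper T cells and were low, with 131 normalized counts of H2-Eb1 in P56 replicate 5 as the highest value. H2-Aa read 48.0, 42.6, 36.8, 40.7 and 49.2 at P21 and 81.1, 86.2, 123, 95.9 and 112 at P56. H2-Eb1 read 67.8, 33.4, 26.0, 46.5 and 48.3 at P21 and 84.1, 101, 118, 69.3 and 131 at P56. Neither overlapped between ages, and they rose by 1.17 (SE 0.16, adjusted p = 3.78e-04) and 1.20 (SE 0.248, adjusted p = 0.00594). H2-Ab1 rose by 0.89 and Psmb9, an immunoproteasome subunit, by 0.92. With a heterozygote library left out, between 5 and 9 of the 20 rose, with 5 without P21 replicate 2 and 6 without P56 replicate 3. Against P21 replicates 4 and 5 alone 3 rose.

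Class II promoters are known for a conserved Y box, and both promoters below are shown because they hold its letters CTGATTGG, in capitals. They cover 250 bases before the RefSeq start in GRCm38.p6, on the minus strand at chr17:34287824-34288073 for H2-Aa and on the plus strand at chr17:34305617-34305866 for H2-Eb1.
H2-Aa: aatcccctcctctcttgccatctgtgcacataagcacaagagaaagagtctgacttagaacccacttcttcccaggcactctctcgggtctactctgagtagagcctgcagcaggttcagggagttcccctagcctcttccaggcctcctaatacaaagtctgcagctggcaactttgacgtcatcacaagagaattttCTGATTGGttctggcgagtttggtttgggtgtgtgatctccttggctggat
H2-Eb1: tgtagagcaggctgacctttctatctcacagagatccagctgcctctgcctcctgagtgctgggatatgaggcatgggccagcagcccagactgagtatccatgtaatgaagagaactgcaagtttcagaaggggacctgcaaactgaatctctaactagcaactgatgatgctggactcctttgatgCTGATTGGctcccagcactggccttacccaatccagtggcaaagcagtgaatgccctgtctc
In H2-Aa the first letter of the motif stood 51 bases before the start, and in H2-Eb1 62 bases. On either strand the letters occurred in 5 of the 15 list genes that had an entry (H2-Aa, H2-D1, H2-Eb1, Psmb9 and Tap1) and in 3.83% of 32851 promoters. Such matches describe sequence and not binding.

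Of 25 microglial genes 2 rose and none fell, with a median of 0.16, beside 5.03% of all tested genes that rose. They were the lysosomal protease Ctss, at 0.43 (SE 0.109, adjusted p = 0.0198), and the complement gene C1qa, at 0.50 (SE 0.133, adjusted p = 0.0252). For both genes the ages overlapped, and neither was called without P21 replicate 2, nor C1qa without P56 replicate 4. The microglial count that rose was 5 without P21 replicate 4, 4 without P56 replicate 3, 1 without P56 replicate 4 and 0 without P21 replicate 2, and it was 4 against P21 replicates 1 to 3 alone and 0 against replicates 4 and 5 alone. The microglial median was 0.26 against P21 replicates 1 to 3 and -0.027 against replicates 4 and 5. Of 25 astrocyte genes 2 rose and 1 fell, with a median of 0.08, a share called near the 12.9% over all genes. The astrocyte count that rose was 6 without P21 replicate 4, 5 without P56 replicate 3 and 0 against P21 replicates 4 and 5 alone. Glul, the glutamine synthetase of astrocytes, read 47599.8, 48719.5, 46552, 49120.1 and 44933 at P21 and 57757, 63721, 60732, 73637 and 91509 at P56. Its groups did not overlap and it rose by 0.53 (SE 0.104, adjusted p = 0.00418). The calcium-binding gene S100b rose by 0.55, and the glutamate transporter Slc1a2 differed by -0.27, a call lost without P21 replicates 2, 4 or 5 or P56 replicates 1, 3 or 5. Of 16 genes of fibroblasts and meninges 4 rose and 3 fell, beside 5.03% and 7.92% of all tested genes. Ptgds, the prostaglandin D synthase of meninges and choroid plexus, read 24806, 23711, 18989, 25462 and 21329.6 at P21 and 39540.5, 35136, 42175, 42750.0 and 53346 at P56, and rose by 0.89 (SE 0.106, adjusted p = 1.38e-04) without overlap, while the 3 that fell were collagens. Only 2 genes of that list rose against P21 replicates 4 and 5 alone. Of 13 choroid plexus genes only the potassium channel Kcnj13 was called, at 0.88, and 49.1% of its exonic bases lie over Gigyf2 on the other strand.

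Genes of the ribosome rose in 33 of 79 cases and fell in none, beside 5.03% of all tested genes that rose, with a median of 0.32. Rpl9 read 6284, 5605, 4949, 6566 and 5677 at P21 and 9445, 10743, 7317, 9320.3 and 10919 at P56. All P56 values lay above all P21 values and it rose by 0.71 (SE 0.105, adjusted p = 7.47e-04). Rps6 rose by 0.66, Rpl13a by 0.61 and Rps25 by 0.58. Ribosomal protein genes have processed pseudogenes of near-identical sequence, so single values are uncertain. The list's mean overlapped between ages, however: it lay between 11.63 and 12.03 at P21 and between 11.90 and 12.42 at P56 on the log2 scale. The ends of those ranges, P21 replicate 3 and P56 replicate 5, are also the ends of the second principal component. The count that rose was 19 without P21 replicate 2, 21 without P56 replicate 2, 2 against P21 replicates 4 and 5, and 54 after a trend on exonic length was taken out. With genes in 5 equal bins of exonic length, the median log2 difference went from 0.046 in the shortest bin to -0.025 in the longest, and the part of length or RNA quality in the ribosomal result was not tested. Of 74 genes of oxidative phosphorylation 1 rose and 1 fell, with 0 to 4 rising and 0 to 3 falling when a library was left out. In the main comparison 12.9% of all tested genes were called in either direction.

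A histone pair shows a split between near-identical copies. Hist2h2aa1 read 127, 86.6, 57.7, 154 and 94.3 at P21 and 109.7, 488, 373, 511 and 654 at P56. Hist2h2aa2 read 421, 418, 433, 425 and 315 at P21 and was listed at 0 in 4 of 5 P56 libraries, with 359 in replicate 1. Every 31-base word of Hist2h2aa2 transcripts also occurs in Hist2h2aa1 (100%). The sum of both copies was 548, 505, 490.4, 579 and 409.7 at P21 and 469, 488, 373, 511 and 654 at P56, ranges that overlap, so the separate calls, at 1.89 and -6.95, are uncertain.

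Of 26 immediate-early genes of neuronal activity 2 rose and 3 fell, beside 5.03% of all tested genes that rose and 7.92% that fell. Egr1, Dusp6 and Jun fell, at -0.51, -0.48 and -0.40, Egr3 rose by 0.43, and 9 fell without P56 replicate 5. Against P21 replicates 4 and 5 alone 0 rose and 0 fell, and these 4 genes each lost the call. By limma, 0 of 17 heat shock genes, 0 of 16 hypothalamic peptide genes and 0 of 4 pituitary genes were called, while 4, 4 and 1 of them had an unadjusted p under 0.05. Of 22 genes of monoamine systems 2 rose and 1 fell, of 18 genes of insulin-like growth factor and growth 5 fell, of 31 progenitor genes 3 fell and of 14 ependymal genes 2 rose. Among region markers, 4 of 20 forebrain genes fell and 1 rose, 1 of 18 cerebellar genes fell and 1 of 15 olfactory bulb genes rose. Counts in this paragraph near the shares over all tested genes, 5.03% rising and 7.92% falling, are not read as results about a list. The forebrain count that fell was 7 without P56 replicate 3, the progenitor count 5 without P21 replicate 3 and the growth factor count 3 without P21 replicate 4 or P56 replicate 1, 4 or 5. With single libraries left out, the ependymal and monoamine counts that rose were each 1 to 2, the forebrain count that rose 0 to 1, the cerebellar count 1 to 2 and the olfactory bulb count 0 to 2.

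To ask whether these changes were particular to the heterozygote, the same interval was compared in the 5 P21 and 5 P56 wild-type libraries and the difference between the genotypes was tested directly. In wild-type brain 628 genes rose (3.65%) and 1060 fell (6.17%) of 17184 tested, 9.82% in all, and 26.6% had an unadjusted p under 0.05. In the heterozygote these shares were 12.9% and 27.6%. Of the 2245 genes called in the heterozygote, 2237 were tested in wild-type, and 2205 of those had the same sign there. Genes called in both with the same direction were 976, which is 43.5% of the heterozygote's calls and 57.8% of the wild-type's. Across 17016 genes the log2 differences of the genotypes had a Pearson r of 0.756, a description over genes, which are not independent replicates. The 10 wild-type and 10 heterozygote libraries are separate samples.

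No gene passed the test of the difference of changes: limma called 0 of 17899, and 522 (2.92%) had an unadjusted p under 0.05. With library quality weights 1 gene passed, Prss57, and in a fit of all 36 libraries 1, the predicted gene Gm31513. The smallest adjusted p was 0.0925, for both of these. With P21 libraries of prefix 11 alone, 2 in each genotype, 1 gene passed, the predicted gene Gm12671 at -9.09. With prefix 24 alone 3 passed, Amy2a4, Gm38226 and Yy2, at -3.98, -4.64 and -4.44, but only 1 wild-type P21 library carries that prefix and it is assumed to vary like the other groups. Gm31513 read 11.2, 8.24, 10.7, 10.8 and 10.9 at P21 and 1.2, 2.09, 2.55, 0 and 2.28 at P56 in the heterozygote, against 4.73, 8.9, 7.64, 7.47 and 7.72 and 15.9, 7.65, 11.5, 6.99 and 17.6 in wild-type. These values lie near or below the filter minimum of 10. The gene did not pass the filter in the heterozygote fit, so its change was not tested in the heterozygote alone. Prss57, a serine protease gene, read 19.2, 38, 18.8, 17.3 and 34.0 at P21 and 5.05, 11.7, 8.65, 7.34 and 8.77 at P56 in the heterozygote, and fell by 1.47 (SE 0.303, adjusted p = 0.00582). In wild-type its difference was 0.90 (adjusted p = 0.0606). The difference of changes was -2.38, with a 95% interval of -3.22 to -1.53, and 40.7% of its exonic bases lie over Fstl3 on the other strand. Other genes among the 10 of smallest p included Mthfs, of folate metabolism, at 0.98 in the heterozygote and -0.0055 in wild-type, and Birc3, an inhibitor of apoptosis, at 0.61 and -0.41, both with an adjusted p for the difference of 0.9997. Their 95% intervals were 0.43 to 1.54 and 0.50 to 1.54. The call of Birc3 in the heterozygote is lost without P21 replicate 1, 2, 4 or 5 or any of P56 replicates 1 to 4. The median half-width of the 95% interval of the difference was 0.35 on the log2 scale, and 0.316 among genes called in the heterozygote, which limits the size of difference these samples can show.

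**Figure D4:**
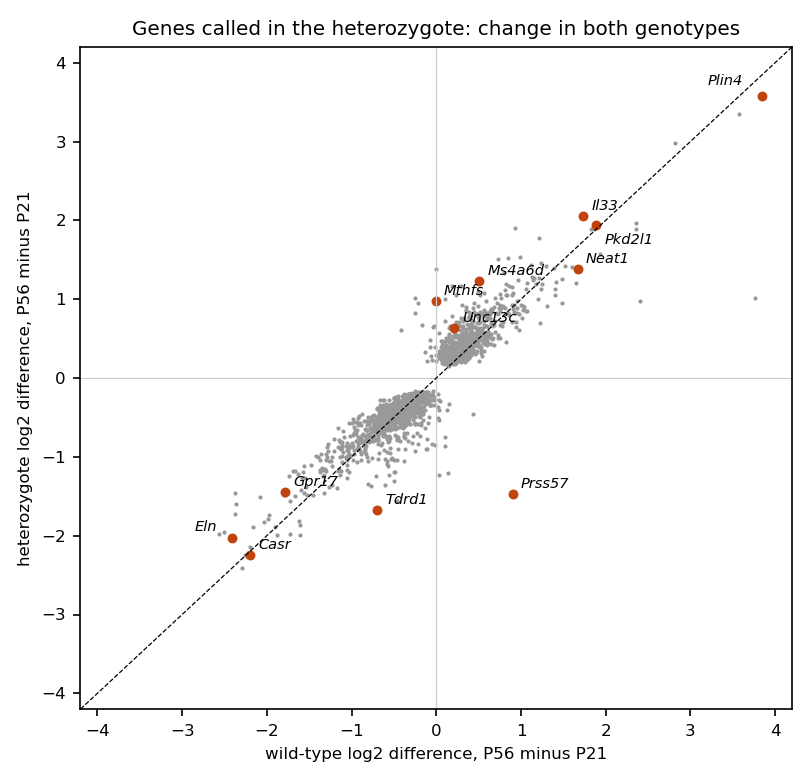
Log2 difference between P56 and P21 in wild-type (horizontal) and heterozygote brain (vertical) for 2232 genes called in the heterozygote, 5 more lying beyond the axes; the dashed line marks equal change and orange points are named genes. Most points lie at the lower left and the upper right, and Prss57, at 0.90 and -1.47, lies apart from the line.

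List medians in the 2 genotypes were set side by side. The sheath list had a median of -0.54 in the heterozygote and -0.80 in wild-type, and 0 of its 32 genes had an unadjusted p under 0.05 for the difference. The newly formed list had medians of -0.68 and -0.90, with 1 gene of 16 under that p, and the blood list of -1.46 and -2.08, with 0 of 9. Medians for cholesterol synthesis were -0.46 and -0.50, for immature neurons -0.33 and -0.36, for matrix -0.47 and -0.45 and for the ribosome 0.32 and 0.24. Counts of calls were less alike for some lists. Of 79 ribosomal genes 33 rose in the heterozygote and 2 in wild-type, and 1 had an unadjusted p under 0.05 for the difference by limma. Of the 32 sheath genes 4 rose and 17 fell in the heterozygote, and 0 rose and 18 fell in wild-type. Medians differed in sign for astrocytes, at 0.08 and -0.11, and for microglia, at 0.16 and -0.02, and these differences between lists were not tested. Gpr17 changed by -1.45 and -1.79 in heterozygote and wild-type, with a 95% interval of the difference of -0.11 to 0.79. For Il33 the changes were 2.06 and 1.74 and the interval -0.09 to 0.74, for Plin4 3.58 and 3.84 with -1.70 to 1.18, and for Eln -2.02 and -2.41 with -0.48 to 1.25. A gene called in the heterozygote alone, such as Unc13c at 0.63 against 0.21 in wild-type, is not thereby shown to differ, and its interval was -0.05 to 0.90.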

How the data were processed

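RNA of whole brains from male mice (C57BL/6J) was sequenced as 36 libraries made with a TruSeq kit (v2), per the labels. The submitters' processing notes name Salmon 1.1.0, R 3.6.2, DESeq2 1.26.0 and GRCm38. Which annotation release served is not given in the sources used here. For 19164 genes the deposited table holds signal values: estimated counts after division by the authors' normalization factors. By exact equality 0.748% of values were whole, all of them 0, so reads were not recovered, depth is unknown and no counting interval is given. Normalized totals lay between 34492184 and 36828083 in the 10 heterozygote libraries used.

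Genes with a value of at least 10 in at least 5 libraries of a fit were taken to log2(value + 1) and tested with limma 3.58.1 in R 4.3.3 (trend and robust options, two-sided), with Benjamini-Hochberg adjustment over all genes tested and a threshold of 0.05. Adjusted p values come from limma. The procedure was tested on simulated data. The age effect was fitted in each genotype alone and its difference in the 20 libraries of P21 and P56. Gene lists are described by counts and medians over tested members; 1 of 20 perineuronal net genes, 3 of 12 blood genes, 1 of 27 immediate-early genes, 6 of 10 pituitary genes, 3 of 19 hypothalamic peptide genes, 2 of 20 cerebellar genes and 1 of 23 monoamine genes were not tested.

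The comparison, lists and rules were chosen with earlier results of these data known. Named were Myt1l, the 15 genes of largest difference in each direction among called genes whose mean reached 20 and whose symbol is no clone or predicted name, a part of the 4 members of smallest p in each list, and a part of the 10 genes of smallest p between genotypes. Bcas1, Plekhb1, Apod, Car2, Hapln2, Snap25, Vamp1, Dcx, Pdgfra, Mbp, Hbb-bt and Gm31513 were chosen after their values were seen, as were the members listed by name without a value. Coordinates and exonic overlaps come from GENCODE for GRCm38 and promoters from RefSeq (GRCm38.p6). The kit does not record strand, and overlapping genes cover 18.6% of the exonic bases of Qdpr, 11.7% of Bcas1, 11.8% of Erc1, 12.9% of Alas2, 17.2% of Rps25 and 29.4% of Rpl13a. Values of some list members are not reported here. Transcripts were compared by words of 31 bases. Alternatives were added values of 0.5 and 8, no filter, a filter at 50, quantile normalization, a common library total, no trend, library quality weights, wider fits, a block for the replicate number, each P21 prefix alone, each library left out and, added after seeing the data, a trend on exonic length removed and, for the difference between genotypes, P21 prefixes 11 or 24 alone. Genes named only under an alternative were chosen after their values were seen.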

Additional observations from a re-analysis of the deposited data

Results flagged for a closer look

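For the genes given here, each age group of 5 libraries was checked for a single library far from the other 4 by Dixon's gap ratio. Chance flags about 1 group in 20 of independent groups, and 20 of 238 groups (8.40%) were flagged. The genes were chosen with these data known, Gh and Prl were added to them, and all share the same libraries. The flagged share is therefore no test against chance.

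P56 replicate 5 stood apart in 7 of these. It was highest for 6 genes: Il33 (2529 against 2075 to 2188 in the others), Cldn11 (9082 against 6428 to 7144), Car2 (9432 against 6418 to 7229), C1qa (2057 against 1280 to 1472), Hba-a2 (2751 against 1981 to 2190) and H19 (44.3 against 23.7 to 27.8). It was lowest for Birc3, at 53.0 against 82.0 to 93.7.

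P21 replicate 5 was highest for Gh (7674 against 0 to 218), Prl (588 against 0 to 5.7) and Mef2c (15074 against 11585 to 12582), and lowest for Hist2h2aa2 (315 against 418 to 433). P56 replicate 3 was highest for Gh (12836 against 0 to 3712), Prl (1766 against 1.09 to 181) and Tmem252 (95.4 against 9.39 to 33.8). P56 replicate 1 was highest for Hist2h2aa2 (359 against 0) and Stx1a (4755 against 4327 to 4394) and lowest for Ip6k3 (18.8 against 34.3 to 40.5). P21 replicate 2 was highest for Alox5 (92.0 against 60.0 to 63.1) and lowest for Gm31513 (8.24 against 10.7 to 11.2), and P56 replicate 4 was highest for Col5a2 (244.9 against 233 to 237).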

How the results depend on the processing

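Genes that rose in the heterozygote numbered 872 as reported, 1350 with library quality weights, 336 against P21 replicates 4 and 5 alone, and 543 to 915 with a library left out. Genes that fell numbered 1373 as reported, 742 against P21 replicates 4 and 5 alone, and 951 to 1628 with a library left out. Fewer libraries enter the fits that leave some out. Calls in wild-type numbered 1688, 2999 with library quality weights, 2723 in a fit of 20 libraries and 872 to 2315 with a library left out (872 to 1065 without P21 replicate 1, 2, 3 or 4 or P56 replicate 5). For quality weights and the wider fit the cause was not tested. The difference between genotypes gave 0 calls, 1 with library quality weights, 1 in the fit of 36 libraries and 0 with any library left out. With P21 libraries of prefix 11 or 24 alone in both genotypes, a choice made after seeing the data, it gave 1 and 3, with fewer libraries in the fit. Quantile normalization moved the share of rises among calls from 38.8% to 47.4% and a common total to 47.5%. Of the genes called as reported, 1 had the other sign under quantile normalization and 0 under each other alternative. Of 115 named and called genes, 73 stayed called under every alternative and 102 without each library, and 0 changed sign. The replicate block gave 728 rises and 1136 falls in the heterozygote, 1250 calls in wild-type and 0 for the difference. Deviations of same-numbered P21 and P56 libraries correlated by -0.076, -0.032, 0.21, -0.02 and -0.136, and 1 of 5 correlated best with its own number. With 5 pairs and no batch in the labels, these values cannot settle whether same-numbered libraries share more than a number. Depth is unknown, so its limits cannot be given.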
